A study of Mus musculus with 12 samples.

Results

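Cytotoxic T cells kill through secretory granules, and the genes described here are 10 that encode the cargo of those granules and its cytosolic inhibitors. They are the granzymes Gzma, Gzmb, Gzmc, Gzmk and Gzmm, the pore protein Prf1, the granule proteoglycan Srgn and the serpins Serpinb9, Serpinb6a and Serpinb6b. They were taken by symbol from a written list that was drawn up with earlier results of these data known, though no threshold on a measured value entered it, and all 10 were found among the 24421 symbols of each count table. CD8+ T cells from the spleen of C57BL/6 mice were treated with DMSO, the solvent (6 libraries), or with an EZH2 inhibitor (EZH2i, 6 libraries), and their polyadenylated RNA was sequenced as single-end reads. EZH2 is the methyltransferase of Polycomb repressive complex 2, which marks repressed genes with methylated lysine 27 of histone H3. The compound, its dose and the length of treatment were not given in the sources used here. All 12 libraries share strain, tissue and cell type in the labels. Whether each library is a mouse or a culture of its own is not stated, and p-values therefore describe library-to-library spread, part or all of which may be technical.

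In a killer cell, perforin opens the membrane of the target and granzymes, a family of serine proteases, enter to cleave proteins inside it. Serglycin is the proteoglycan core on which the positively charged granzymes and perforin are packed before release. Serpins of clade B stay in the cytosol of the killer cell, where they trap protease that leaks from its own granules: Serpinb9 traps granzyme B, and Serpinb6b is known as an inhibitor of mouse granzyme A. The granzymes lie in clusters, Gzma beside Gzmk, and Gzmb and Gzmc among further granzymes and mast cell proteases.

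Libraries held 17215483 to 31206228 counts, and levels are given in CPM, the usual unit of counts relative to the library total, here with totals scaled by TMM. The mRNA of Ezh2, the target of the drug, stood at 278 ± 29.4 CPM (SD, n = 6) in DMSO and 234 ± 26.6 CPM in EZH2i (adjusted p = 0.0833 in edgeR's quasi-likelihood test on the group alone). It was lower in 6 of 6 same-numbered libraries and was called lower with the replicate number in the model (adjusted p = 0.000757) and without the libraries numbered 6 (adjusted p = 0.00119). The CD8 T cell markers were at high levels, with a sum over 10 genes of 6200 to 7600 CPM in DMSO and 4950 to 6220 CPM in EZH2i, and 4 of the 10 fell, where 6.05% of all tested genes were called lower. With the replicate number in the model 8 fell (24.3% of all tested genes), without number 6 it was 7 (20.9%), and with upper-quartile scaling 3 (2.96%). The library numbered 6 stood apart in each group on the first pair of principal components (45.2% and 33.8% of the variance), and values without both libraries numbered 6, or with the replicate number as a block, a term of the model that compares same-numbered libraries, are given beside the calls on the 10 genes and on the lists that they change.

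Promoters of the genes on which the results turn are printed for their content of CG dinucleotides, since in mammals Polycomb repressive complex 2 is found mainly at CG-rich promoters. Each line gives the 250 bases before the RefSeq start of the gene (build GRCm38.p6), 5′ to 3′ on the strand of the gene, with CG dinucleotides in capitals. The stretches are chr13:113100982-113101231 on the minus strand for Gzma, chr14:56262335-56262584 on the minus strand for Gzmb, chr13:33004291-33004540 on the plus strand for Serpinb9, chr13:32965011-32965260 on the plus strand for Serpinb6b and chr13:34002795-34003044 on the minus strand for Serpinb6a.
Gzma: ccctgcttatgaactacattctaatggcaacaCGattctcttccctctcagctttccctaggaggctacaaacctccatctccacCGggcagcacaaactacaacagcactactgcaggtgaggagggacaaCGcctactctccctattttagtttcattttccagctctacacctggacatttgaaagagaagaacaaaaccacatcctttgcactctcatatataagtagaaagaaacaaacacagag
Gzmb: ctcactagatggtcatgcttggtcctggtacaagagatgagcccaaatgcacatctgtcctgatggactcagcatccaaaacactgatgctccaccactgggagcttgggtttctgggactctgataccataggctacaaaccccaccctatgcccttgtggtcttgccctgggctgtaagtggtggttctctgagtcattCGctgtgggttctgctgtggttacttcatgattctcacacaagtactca
Serpinb9: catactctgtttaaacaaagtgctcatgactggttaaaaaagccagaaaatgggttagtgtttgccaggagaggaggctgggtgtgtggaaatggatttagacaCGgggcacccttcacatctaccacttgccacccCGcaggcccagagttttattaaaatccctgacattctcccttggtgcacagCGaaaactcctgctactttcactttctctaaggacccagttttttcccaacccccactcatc
Serpinb6b: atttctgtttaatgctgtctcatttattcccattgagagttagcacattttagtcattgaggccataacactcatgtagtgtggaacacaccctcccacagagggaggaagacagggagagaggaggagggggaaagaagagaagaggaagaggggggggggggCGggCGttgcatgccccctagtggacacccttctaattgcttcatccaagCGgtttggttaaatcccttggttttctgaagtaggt
Serpinb6a: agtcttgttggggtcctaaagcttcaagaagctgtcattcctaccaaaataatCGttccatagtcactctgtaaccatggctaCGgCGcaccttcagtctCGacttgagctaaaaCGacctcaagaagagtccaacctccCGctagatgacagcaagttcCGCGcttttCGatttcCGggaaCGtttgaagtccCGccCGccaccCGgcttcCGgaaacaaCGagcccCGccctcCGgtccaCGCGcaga
Gzma, Serpinb9 and Serpinb6b, which rose, have 3 CG dinucleotides each in this stretch, Gzmb has 1, and Serpinb6a has 20. Gzmc and Prf1, which also rose, have 2 and 4. Before the second RefSeq start of Serpinb6a there are 2, and the stretch printed for it lies near the start of Ripk1 on the other strand. Binding of the complex was not measured. Over all 32851 promoters of the table the median was 6, with quartiles of 2 and 16. The first promoter of 9 of the 10 genes had 1 to 6, so Serpinb6a alone lay above the median.

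Of the 10 genes, 5 rose with EZH2i and 0 fell. Those that rose were Gzma, Gzmc, Prf1, Serpinb9 and Serpinb6b, and Gzmb, Gzmk, Gzmm, Srgn and Serpinb6a did not pass the test. All 10 passed the filter on low counts. Among the 11727 genes tested, 13.3% were called higher and 6.05% lower, at an adjusted p under 0.05 in edgeR's quasi-likelihood test. The median log2 fold change of the 10 was 0.43, against -0.01 over all tested genes. At an unadjusted p under 0.05, 6 of the 10 were higher and 1 lower, and the DESeq2 test likewise called 0 lower, where it called 24.6% of all tested genes and 9.59% lower. With the replicate block 7 were higher and 1 lower, where 49.0% of all tested genes were called, 24.7% higher and 24.3% lower. Without both libraries numbered 6, 6 were higher and 2 lower, where 44.8% of all tested genes were called, 23.9% higher and 20.9% lower. With the block and without number 6 it was 50.2%, with 26.0% higher and 24.2% lower. In 3 of the 10, Gzma, Prf1 and Serpinb9, every EZH2i library lay above every DMSO library, as was so for 7.50% of all tested genes, and in 0 every EZH2i library lay below (2.74% of all tested genes). Without both libraries numbered 6, Gzmc and Serpinb6b joined them, which made 5 of the 10 against 17.1% of all tested genes.

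**Figure D1:**
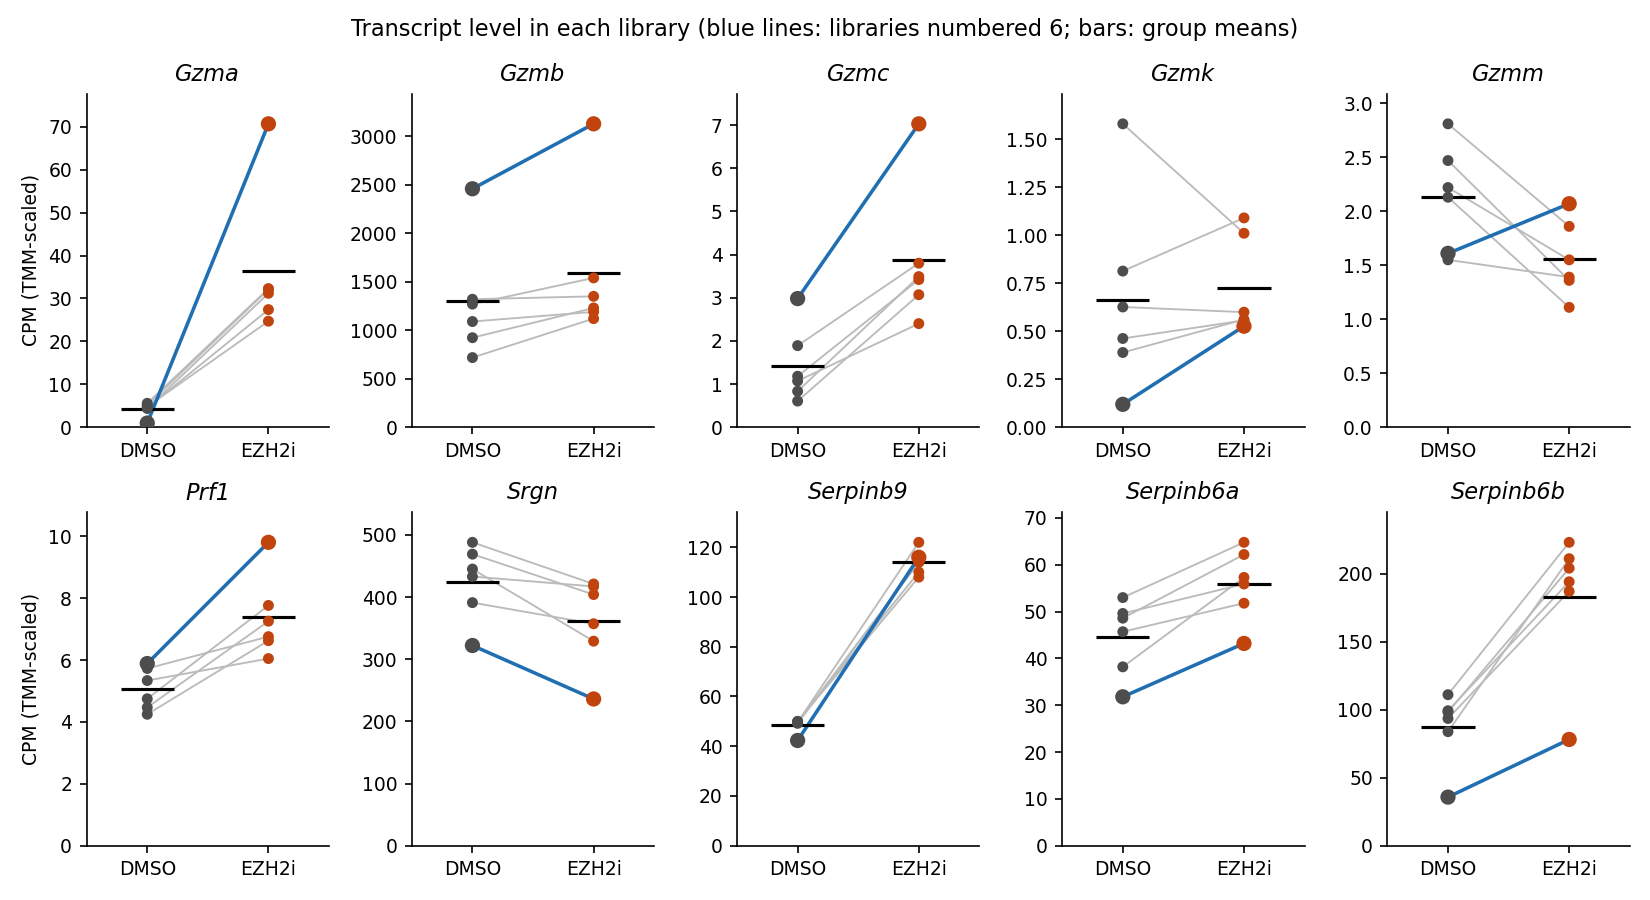
Level of each gene in CPM (vertical axis, from 0) in the 6 DMSO and 6 EZH2i libraries, with lines joining same-numbered libraries, blue for number 6, and black bars at the group means. Gzma, Prf1 and Serpinb9 separate the groups without overlap, Gzmb is highest in the libraries numbered 6 of both groups, and Serpinb6b is lowest in them.

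Granzyme A, a tryptase-like protease that was a minor transcript in control cells, showed the largest rise of the 10. Gzma ranged from 0.953 CPM through a median of 4.64 to 5.56 in DMSO, and from 24.7 CPM through 31.7 to 70.7 in EZH2i. The groups did not overlap, and library 6 was the lowest of the DMSO group and the highest of the EZH2i group. The rise was 8.56-fold (log2 fold change 3.10, SE 0.355, adjusted p = 5.82e-05), and the EZH2i library exceeded the DMSO library in 6 of 6 numbers. Without number 6 the log2 fold change was 2.60 (adjusted p = 1.44e-11), with means of 4.86 ± 0.485 and 29.5 ± 3.35 CPM (n = 5). Within number 6 the log2 difference was 6.21, from 16 counts in DMSO. Gzma lies on chromosome 13 from 113093825 to 113100981 on the minus strand.

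Granzyme K, a tryptase-like relative whose start lies 80.0 kb from that of Gzma, did not pass the test. Gzmk ranged from 0.119 to 1.58 CPM in DMSO and from 0.526 to 1.09 CPM in EZH2i, with 90 and 117 counts in all (log2 fold change 0.12, SE 0.428, adjusted p = 0.880). At this depth a change of its size could not be told from the spread. The difference between the neighbours was tested as the ratio of their counts within a library, which does not depend on scaling. The log2 ratio of Gzma over Gzmk was 2.86 ± 0.754 in DMSO and 5.62 ± 0.792 in EZH2i, a 6.78-fold shift (two-sided exact permutation test over the 12 libraries, p = 0.00216, the smallest it can give, and adjusted p = 0.00649 over 6 ratios). All EZH2i libraries lay above all DMSO libraries in this ratio. Gzmk held only 2 to 30 counts a library, and in DMSO library 6 the ratio was 16 counts over 2. Without number 6 the shift was 2.5 on the log2 scale (exact permutation p = 0.00794).

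Granzyme B, the aspartate-cleaving protease that triggers caspases, was the most abundant of the 10 in both groups and varied more between libraries than between groups. Gzmb ranged from 718 CPM through a median of 1180 to 2460 in DMSO and from 1120 CPM through 1290 to 3130 in EZH2i. The highest value of each group was in library 6, and the groups overlapped. The log2 fold change was 0.30 (SE 0.311, adjusted p = 0.567), and -0.02 without EZH2i library 6 and 0.58 without DMSO library 6. Same-numbered libraries were higher with EZH2i in 6 of 6 numbers, and with the replicate block Gzmb was called (log2 fold change 0.30, SE 0.0682, adjusted p = 0.00174). Without number 6 and without the block it was not called (log2 fold change 0.27, adjusted p = 0.0938). Gzmb lies on chromosome 14 from 56258838 to 56262260.

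Granzyme C, a granzyme of rodents whose start is 27.7 kb from that of Gzmb, rose from a low level. Gzmc ranged from 0.605 CPM through 1.13 to 2.98 in DMSO and from 2.40 CPM through 3.45 to 7.03 in EZH2i. The overlap came from DMSO library 6, which lay above the lowest EZH2i library. The rise was 2.77-fold (log2 fold change 1.47, SE 0.368, adjusted p = 0.0131), seen in 6 of 6 numbers, and 1.55 on the log2 scale without number 6. Of the 75-base stretches of Gzmc transcripts, 10.4% match a transcript of another gene with at most 2 mismatches, chiefly Gzmd. Reads in them could be split between genes, since the treatment of reads with several matches was not given in the sources used here. Its neighbours Gzmd, Gzme and Gzmf had 4, 1 and 9 counts in all DMSO libraries and 14, 14 and 20 in EZH2i, under the filter. Gzmg and Gzmn had 0 of 295660249 counts, which allows up to 0.0101 CPM over all libraries (3 counts; counting error only).

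Granzyme M, a protease that cleaves after methionine and leucine, did not pass the test over all 12 libraries. Gzmm ranged from 1.55 CPM through 2.17 to 2.81 in DMSO and from 1.11 CPM through 1.47 to 2.07 in EZH2i, and the groups overlapped. The log2 fold change of -0.45 (SE 0.201, adjusted p = 0.142) missed the threshold, with 5 of 6 same-numbered libraries lower. Library 6 was the exception, with a log2 difference of 0.37 within number 6. Without both libraries numbered 6 Gzmm was called lower (log2 fold change -0.60, adjusted p = 0.0206), and without EZH2i library 6 alone as well (-0.55, adjusted p = 0.0486, where 34.6% of all tested genes were called, 19.2% higher and 15.4% lower). With the block over all 12 libraries it was not called (adjusted p = 0.0687).

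Per kilobase of exon, the summed level of the 5 granzymes came almost wholly from Gzmb. Gzmb made up 98.3% to 99.7% of it in DMSO libraries and 95.4% to 97.1% in EZH2i libraries. The part of Gzma went from 0.0552% to 0.998% (median 0.610%) in DMSO to 2.47% to 3.91% (median 3.14%) in EZH2i, and the groups did not overlap. Measured against Gzmb in the same library, the log2 ratio of counts of Gzma over Gzmb was -8.34 ± 1.52 in DMSO and -5.44 ± 0.259 in EZH2i, a 7.46-fold shift (two-sided exact permutation p = 0.00216, adjusted p = 0.00649). Without number 6 the shift was 2.31 on the log2 scale (exact permutation p = 0.00794, the smallest that 5 against 5 allows). EZH2i library 6, the highest in Gzma and in Gzmb, held an ordinary place in their ratio, while DMSO library 6 was the lowest of its group at -11.33 on the log2 scale.

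Perforin, which forms the pore, also rose. Prf1 ranged from 4.25 CPM through 5.04 to 5.89 in DMSO and from 6.05 CPM through 7.01 to 9.81 in EZH2i, without overlap. The rise was 1.46-fold (log2 fold change 0.54, SE 0.137, adjusted p = 0.0138), seen in 6 of 6 numbers, and 0.48 on the log2 scale without number 6. The log2 ratio of Prf1 over Gzmb was -7.90 ± 0.609 in DMSO and -7.67 ± 0.375 in EZH2i (exact permutation p = 0.439, adjusted p = 0.439). That difference of 0.23 was within the spread between libraries, and a p of this size does not show that both genes changed alike. Prf1 lies on chromosome 10 from 61297833 to 61304680.

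Serglycin, the packing proteoglycan and second most abundant of the 10, was the only gene lower in all same-numbered libraries. Srgn ranged from 322 CPM through 439 to 488 in DMSO and from 236 CPM through 381 to 421 in EZH2i, with library 6 the lowest of each group. The groups overlapped, and the log2 fold change of -0.24 (SE 0.14, adjusted p = 0.272) missed the threshold. It was called lower with the replicate block (log2 fold change -0.25, SE 0.0582, adjusted p = 0.00234) and without number 6 (-0.20, adjusted p = 0.0324). The log2 ratio of Srgn over Gzmb was -1.51 ± 0.743 in DMSO and -2.06 ± 0.832 in EZH2i (exact permutation p = 0.294, adjusted p = 0.353). It was lower in 6 of 6 same-numbered libraries, where an exact permutation test over pairs gave p = 0.0312, the smallest that 6 pairs allow.

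Serpinb9, the inhibitor of granzyme B, rose with the smallest adjusted p of the 10. It ranged from 42.3 CPM through 49.6 to 50.0 in DMSO and from 108 CPM through 114 to 122 in EZH2i. The other 5 DMSO libraries lay within 49.2 to 50.0 CPM, and library 6 was the lowest, while EZH2i library 6 at 116 CPM lay inside its group. The rise was 2.35-fold (log2 fold change 1.24, SE 0.0593, adjusted p = 1.12e-07) and 1.20 on the log2 scale without number 6. Its log2 fold change stayed between 1.20 and 1.30 under all 19 alternatives that were run. In GENCODE, Serpinb9 lies on chromosome 13 from 33003250 to 33017957. The promoter printed for it is set by the later RefSeq start and lies inside this interval.

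Relative to its protease, Serpinb9 was higher with EZH2i. Its counts, not scaled by length, were 1.72% to 6.95% of those of Gzmb in DMSO libraries and 3.70% to 9.86% in EZH2i libraries. The log2 ratio of Serpinb9 over Gzmb was -4.63 ± 0.684 and -3.70 ± 0.529, a 1.91-fold shift (two-sided exact permutation p = 0.0281, adjusted p = 0.0422), with a rise in 6 of 6 numbers. EZH2i library 6, at 3.70%, overlapped the DMSO group, and without number 6 the shift was 0.90 on the log2 scale (exact permutation p = 0.00794).

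Serpinb6b, the granzyme A inhibitor, starts 39.3 kb from Serpinb9 on the same strand and also rose. It ranged from 35.7 CPM through 95.8 to 111 in DMSO and from 78.1 CPM through 199 to 223 in EZH2i. Library 6 was the lowest of each group, and the overlap came from EZH2i library 6 alone. The log2 fold change was 1.07 (SE 0.271, adjusted p = 0.0138), and 1.07 without number 6. The log2 difference within number 6 was 1.13, and with the replicate block the adjusted p was 7.96e-10. Serpinb6b lies on chromosome 13 from 32965209 to 32979067.

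Serpinb6a, a close relative that inhibits trypsin-like proteases, starts 998 kb from Serpinb9 and did not pass the test. It ranged from 31.8 CPM through 47.2 to 53.0 in DMSO and from 43.2 CPM through 56.6 to 64.8 in EZH2i, overlapping, with library 6 the lowest of each group. The log2 fold change of 0.33 (SE 0.13, adjusted p = 0.0999) missed the threshold. Serpinb6a was called higher with the replicate block over all libraries (adjusted p = 0.000392). In fits without the block it was called without number 6 (0.31, adjusted p = 0.00611) and without EZH2i library 6 (0.39, adjusted p = 0.0228). Serpinb6b changed more than Serpinb6a in the same libraries: the log2 ratio of Serpinb6b over Serpinb6a was 0.90 ± 0.362 in DMSO and 1.65 ± 0.392 in EZH2i, a 1.68-fold shift (exact permutation p = 0.0130, adjusted p = 0.0260). Serpinb6a lies on chromosome 13 from 33917918 to 34002794 and overlaps Nqo2 and Ripk1 on the other strand. Of its 75-base stretches 24.2% match another gene, chiefly Nqo2, and the strand setting of the counting was not given in the sources used here. For Serpinb6b that share was 4.22%, chiefly with Serpinb6c, and for Serpinb9 0.673%, with Serpinb9b. The other 6 genes, Gzma, Gzmb, Gzmk, Gzmm, Prf1 and Srgn, had none.

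**Figure D2:**
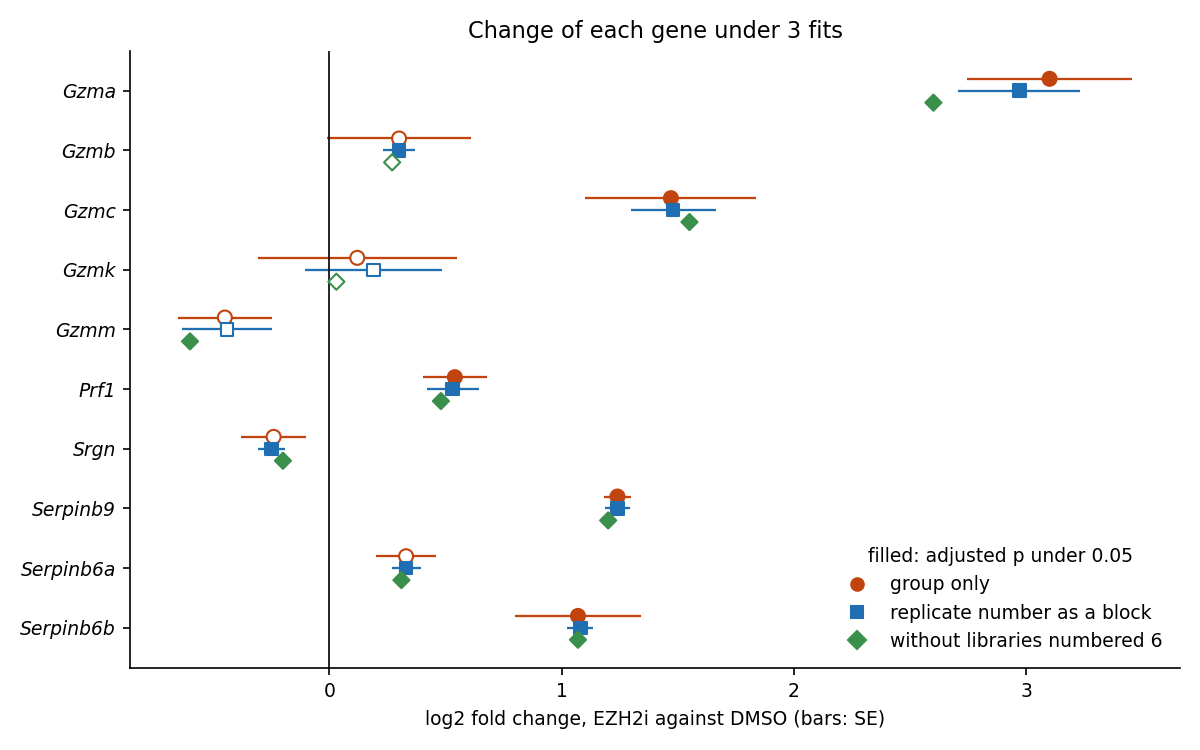
Log2 fold change of EZH2i against DMSO for each gene (horizontal axis) from the fit on the group alone and the fit with the replicate block, both with SE bars, and from the fit without both libraries numbered 6, drawn without bars. Filled symbols passed an adjusted p under 0.05; the 5 genes that rose are filled in all 3 fits, and Gzmb, Gzmm, Srgn and Serpinb6a are filled in some.

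**Figure D3:**
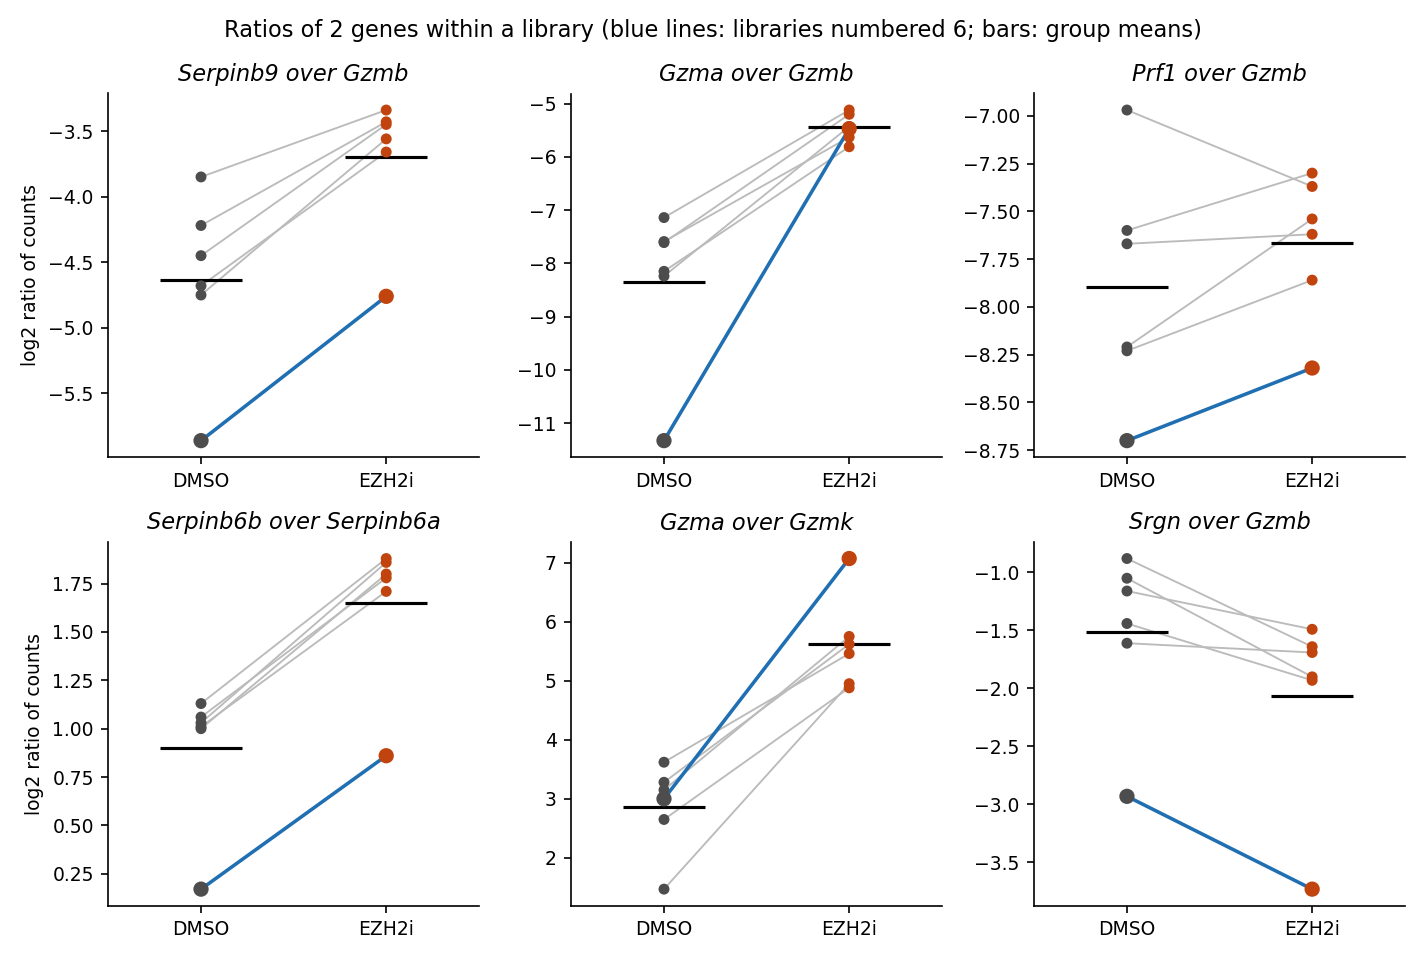
Log2 ratio of the counts of 2 genes in each library (vertical axis) for the 6 ratios compared, with lines joining same-numbered libraries, blue for number 6, and bars at the group means. Gzma over Gzmb and Gzma over Gzmk separate the groups; Serpinb9 over Gzmb and Serpinb6b over Serpinb6a rise in all 6 numbers.

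To compare the genes with each other, CPM was divided by exon length. In DMSO the order of mean levels per kilobase was Gzmb (903 ± 426 CPM per kb), Srgn (193 ± 27.4), Serpinb6b (38.4 ± 11.8), Serpinb9 (13.9 ± 0.862), Serpinb6a (8.22 ± 1.47), Gzma (4.18 ± 1.64), Prf1 (1.96 ± 0.263), Gzmc (1.60 ± 0.981), Gzmm (1.45 ± 0.332) and Gzmk (0.479 ± 0.364). The ranges of Prf1, Gzmc and Gzmm over libraries overlapped, as did those of Gzmk and Gzmm and of Prf1 and Gzma, and the other neighbours in this order did not overlap. In EZH2i Gzma, at 36.2 ± 17.0 CPM per kb, passed Serpinb6a (10.3 ± 1.43), and its range overlapped those of Serpinb9 (32.6 ± 1.40) and Serpinb6b (80.8 ± 23.4). Gzmc, at 4.33 ± 1.81 CPM per kb, stood beside Prf1 at 2.86 ± 0.513, and their ranges overlapped.

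The neighbourhood of the genes was read up to 500 kb beyond each gene or cluster. Around Serpinb9 and Serpinb6b, 2 of 11 further genes were tested, and 1 of them, Serpinb1a, an inhibitor of neutrophil-type proteases, rose (log2 fold change 0.72, adjusted p = 0.0362), while Wrnip1 did not (-0.04, adjusted p = 0.738). Serpinb1a was higher in 5 of 6 numbers, with a log2 difference of -0.15 within number 6. Of the other copies there, Serpinb9b was under the filter with 11 counts in DMSO and 78 in EZH2i, and Serpinb9c, Serpinb9d, Serpinb9e, Serpinb9f and Serpinb9g had 0 counts. Around Gzma and Gzmk, 1 of 4 tested neighbours was called, Snx18 (log2 fold change 0.43, adjusted p = 0.0307). Around Gzmb and Gzmc it was 1 of 13, Nynrin, at 2.64 on the log2 scale (adjusted p = 7.66e-06). Around Prf1 and Srgn 4 of 23 were higher and 0 lower, around Serpinb6a 1 of 7 higher and 0 lower, and around Gzmm 3 of 29 higher and 2 lower, the latter being Cnn2 (-0.75, adjusted p = 0.000186) and Ptbp1 (-0.27, adjusted p = 0.0327). These shares are to be read beside the 13.3% of all tested genes that were called higher and the 6.05% called lower.

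**Figure D4:**
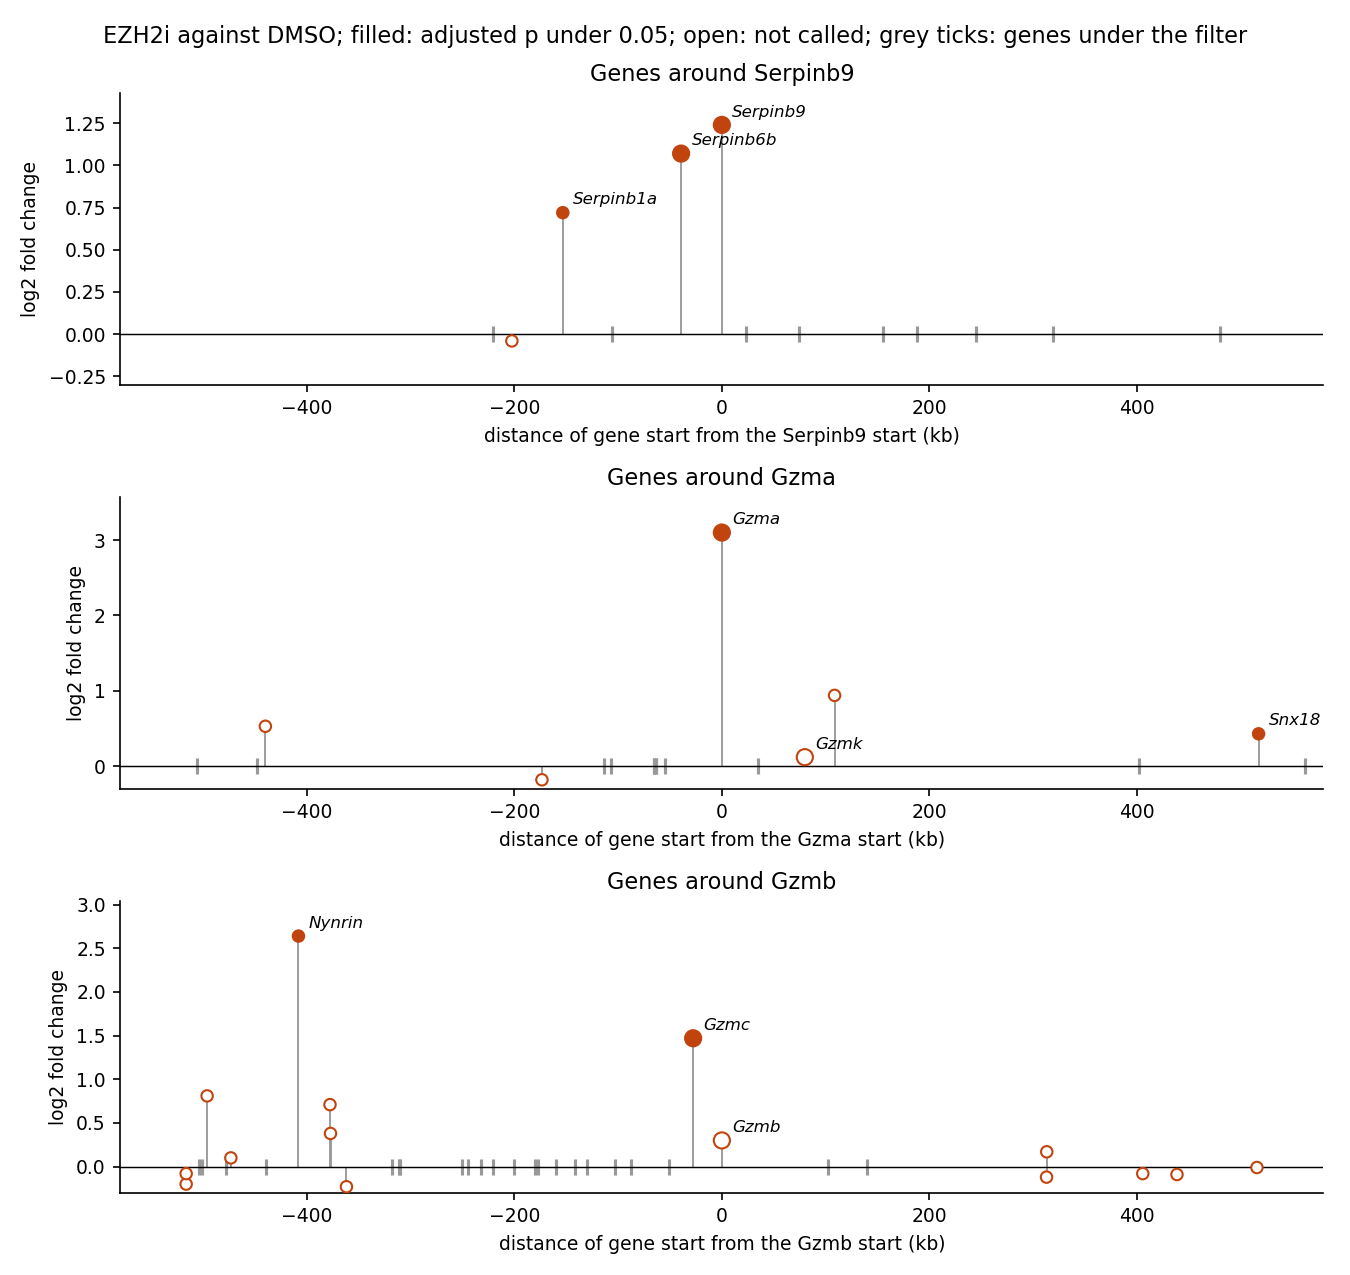
Log2 fold change of each tested gene (vertical axis) against the distance of its start from that of Serpinb9, Gzma or Gzmb in kilobases (horizontal axis), filled where the adjusted p was under 0.05, with grey ticks at genes under the filter. The tested clade B serpins near Serpinb9 are all filled, whereas Gzmk near Gzma and Gzmb near Gzmc are open.

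Known sequence motifs of T cell factors were looked for in the same 250 bases on both strands. The Runx letters TGTGGT were found in the first promoter of 5 of the 10 genes, Gzma, Gzmb, Gzmc, Gzmm and Prf1, and in 14.0% of all promoters of that length. The letters TGANTCA, bound by AP-1, were found for Gzmb (6.75% of all promoters) and TTCNNNGAA, bound by STAT factors, for Gzmm and Serpinb6a (7.02%). The T-box letters AGGTGTGA were found for 0 of the 10 (1.12% of all). The first promoters of Serpinb9, Serpinb6b, Gzmk and Srgn held none of these letters.

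Other serpins and granule genes were read from lists. Of 6 tested serpins outside the 10 (of 27 in the files), 4 rose and 0 fell (median log2 fold change 0.75). Of all tested genes, 13.3% were called higher and 6.05% lower. Serpina3f rose from 44.0 ± 5.97 to 111 ± 12.4 CPM (adjusted p = 3.14e-06, log2 fold change 1.34) and its relative Serpina3g, an inhibitor of lysosomal cathepsins, from 151 ± 29.8 to 260 ± 68.7 CPM (0.78, adjusted p = 0.0043). Serpine2, an inhibitor of thrombin, rose from 32.9 ± 4.30 to 63.5 ± 18.1 CPM (0.95, adjusted p = 0.000866). Serpinb1a, already counted as a neighbour of Serpinb9, rose as well.

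Genes that activate, chaperone or sort granule proteins had 5 of 21 tested members higher and 2 lower (median log2 fold change 0.05), beside 13.3% and 6.05% of all tested genes. With the block 7 were higher and 3 lower, beside 24.7% and 24.3%, and without number 6 it was 6 and 3, beside 23.9% and 20.9%. Ctsc, the dipeptidyl peptidase that removes the propeptide of granzymes, fell from 154 ± 6.01 to 123 ± 5.67 CPM (adjusted p = 0.000851, log2 fold change -0.32), lower in 6 of 6 same-numbered libraries and without overlap. Lyst, whose loss enlarges granules, rose from 131 ± 12.6 to 186 ± 10.4 CPM (0.50, adjusted p = 0.000272). Chst11, a chondroitin sulfotransferase of the kind of sugar chain that serglycin carries, rose from 11.1 ± 1.05 to 20.5 ± 1.58 CPM (0.88, adjusted p = 1.55e-05), and the sorting receptor Sort1 from 0.618 ± 0.163 to 1.75 ± 0.511 CPM (1.49, adjusted p = 0.00139). Of 3 tested further genes of killing, Fasl, the death ligand, rose from 8.42 ± 2.96 to 18.3 ± 6.13 CPM (1.12, adjusted p = 0.00618), while the granule membrane protein Nkg7 stood at 430 and 438 CPM (0.03, adjusted p = 0.911). Mpeg1, a perforin-like pore protein of phagocytes, stood at 1.41 ± 0.514 and 2.62 ± 1.28 CPM (adjusted p = 0.0597), and was called higher with the block (adjusted p = 0.00361) and without number 6 (adjusted p = 0.0209), which made 2 of the 3.

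A list of transcription factors that act for or against the cytotoxic program had 11 of 32 tested members higher and 0 lower. Its median log2 fold change was 0.22, and 13.3% of all tested genes were called higher and 6.05% lower. Those with the smallest adjusted p were Fosl2, an AP-1 subunit, from 12.9 ± 1.93 to 33.0 ± 4.88 CPM (adjusted p = 8.01e-06, log2 fold change 1.35), Irf8 (0.76, adjusted p = 3.07e-05), Prdm1 (0.99, adjusted p = 4.08e-05) and Runx2 (0.80, adjusted p = 0.000363). With the replicate block 20 were higher and 4 lower, where 24.7% and 24.3% of all tested genes were called, and without number 6 it was 20 and 3, where 23.9% and 20.9% were called. Of 16 receptor chains for cytokines 2 rose, Il12rb2, for interleukin 12 (0.80, adjusted p = 3.14e-06), and Il15ra, which presents interleukin 15 (0.43, adjusted p = 0.0058), and 2 fell, Il6ra (-0.41, adjusted p = 0.00177) and Il27ra (-0.27, adjusted p = 0.0307). With the block 6 were higher and 6 lower, and without number 6 it was 5 and 6, beside the same shares of all tested genes.

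A list drawn up as intracellular substrates of granzymes A and B had 1 of 23 tested members higher and 4 lower. Of all tested genes, 13.3% were called higher and 6.05% lower. With upper-quartile scaling the list had 2 higher and 1 lower, beside 15.3% and 2.96% of all tested genes. Not every listed protein is an established substrate. Hmgb2, a chromatin protein cut by granzyme A, fell from 1680 ± 108 to 1340 ± 71.8 CPM (adjusted p = 0.00213, log2 fold change -0.32), and Lmnb1 (-0.24, adjusted p = 0.0124) and the nuclease Dffb (-0.27, adjusted p = 0.0171) also fell. Gsdmd, a pore-forming gasdermin and like Dffb not an established granzyme substrate, rose (0.35, adjusted p = 0.00435). With the block 2 were higher and 10 lower, where 24.7% of all tested genes were called higher and 24.3% lower. Without number 6 it was 3 and 11, where 23.9% and 20.9% were called.

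**Figure D5:**
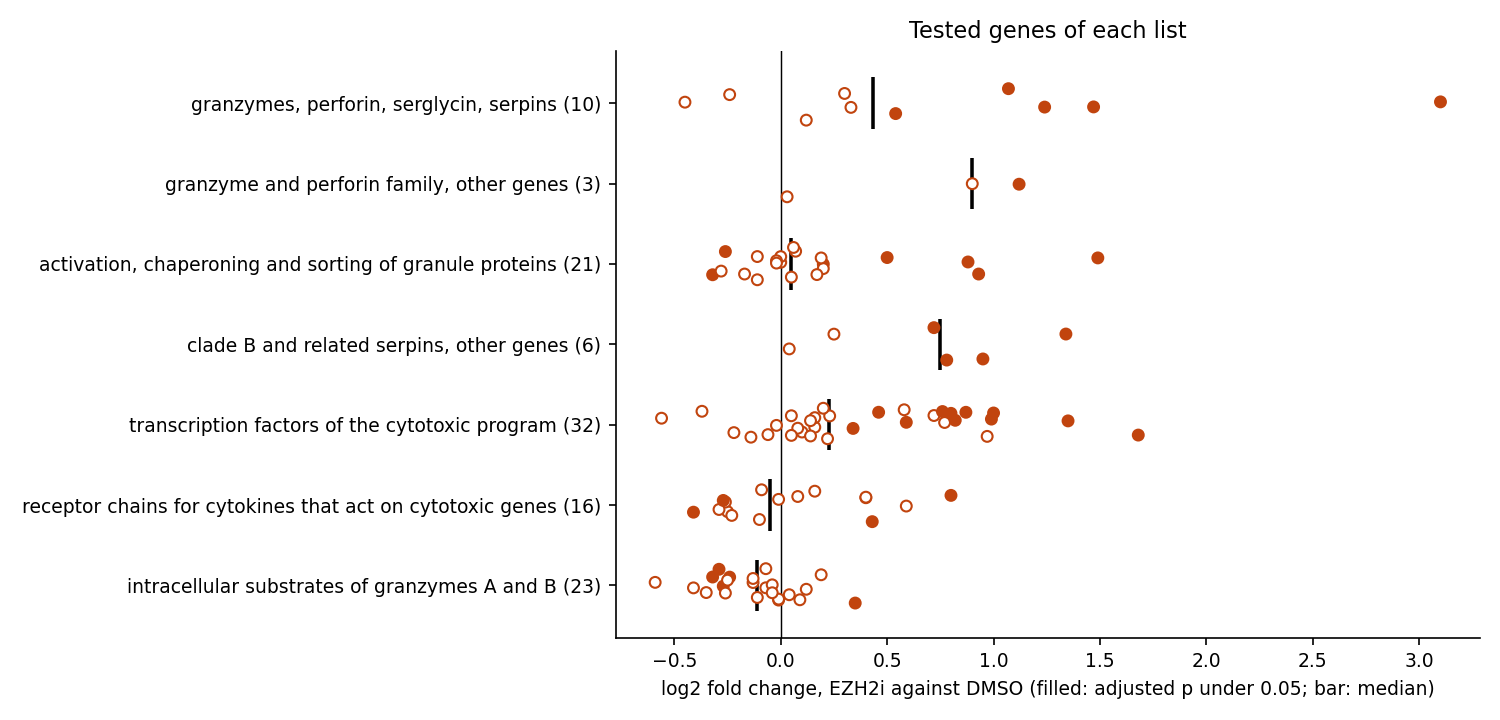
Log2 fold change of every tested gene of the 10 and of 6 related lists (horizontal axis), 1 row a list with its number of tested genes, filled where the adjusted p was under 0.05, with a bar at the median. The medians run from -0.11 for the list drawn up as granzyme substrates to 0.90 for the 3 further genes of killing.

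Markers of other cells that carry these genes were read beside the results. Of 12 natural killer cell and innate lymphocyte genes 9 had counts, and their sum was 8.78 to 11.6 CPM in DMSO and 12.1 to 16.3 CPM in EZH2i. The receptor Ncr1 stood at a mean of 0.0455 CPM in each group, Klra8 and Klra4 had 0 counts, and Klrb1c went from 0.852 to 5.10 CPM. Of 11 mast cell and basophil genes 8 had counts, with a sum of 6.19 to 8.28 CPM in DMSO and 28.7 to 54.6 CPM in EZH2i. That sum followed Kit, which went from 3.84 to 31.4 CPM. The protease Cpa3 went from 1.01 to 2.28 CPM and was also called higher. The proteases Mcpt4, Tpsb2 and Tpsab1 had 0 counts, and Mcpt8 stood at 0.089 and 0.158 CPM. The sum of 12 neutrophil and monocyte genes was 2.14 to 7.54 CPM in DMSO and 5.05 to 15.1 CPM in EZH2i, chiefly from Itgam, with Elane at 0 and 0.0247 CPM. The sums of dendritic cell genes (55.8 to 80.4 CPM in DMSO, 51.2 to 101 in EZH2i) and of B cell genes (20.3 to 25.8 and 15.6 to 24.0 CPM) came chiefly from Bst2 and Cd79b. Cd4 stood at 0.0887 and 0.0983 CPM, and the whole CD4 T cell list at 17.4 to 23.2 and 24.1 to 34.9 CPM. Klrb1c, Kit and Itgam (4.75 to 11.6 CPM) were called higher as well. So were Styk1 of the natural killer list (0.280 to 0.881 CPM), Itgax of the dendritic list (0.513 to 2.01) and Zbtb7b of the CD4 list (14.6 to 22.2). By list, 2 of 6 tested natural killer genes, 2 of 4 mast cell genes and 1 of 1 neutrophil and monocyte genes were called higher. For dendritic, B cell and CD4 genes it was 1 of 2, 0 of 2 and 1 of 2. In the fit on the group alone 0 tested genes of these lists were called lower. Of all tested genes, 13.3% were called higher and 6.05% lower. The part of these sums in the rise of Gzma was not tested, and in bulk RNA more cells with a transcript and more transcript per cell cannot be told apart.

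The genes whose level over the 12 libraries was most like that of a member were taken by Pearson correlation of log2 CPM among 9206 genes with a mean of at least 5 CPM, and are given as a description, since the libraries share group, depth and number. For Gzmb they were Ybx3 (r of 0.985), Asns (0.976), Rnf19b (0.974) and Syde2 (0.974), and the values without number 6 were 0.969, 0.927, 0.931 and 0.890. Around the group means their r was 0.972 to 0.985, so the likeness lay between libraries of a group. For Serpinb9 they were Nedd4 (0.994), Aldh7a1 (0.991), Ptpn13 (0.988) and Tef (0.987), with r of 0.409 to 0.693 around the group means, so there it lay mainly between the groups. For Gzma they were Homer3 (0.965), Alcam (0.960), Dse (0.955) and Ctla2b (0.951), and for Prf1 they were Tex15 (0.944), Agrn (0.938), Chka (0.935) and Snx18 (0.932).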

How the data were processed

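RNA of 12 libraries, 6 of DMSO-treated and 6 of EZH2 inhibitor-treated splenic CD8+ T cells, was measured, and groups were taken from the sample titles. The authors deposited 1 table a library with the raw read counts of 24421 symbols. Per the submitters' processing notes the tools included TopHat2 2.1.1 and featureCounts, beside Trimmomatic 0.38, FastQC 0.11.7 and SAMtools 1.9, with build GRCm38 (mm10). The annotation, strand setting and handling of multiply mapped reads were not given in the sources used here.

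Testing used edgeR 4.0.16 in R 4.3.3, with filterByExpr by group (11727 genes), TMM scaling, and the two-sided quasi-likelihood test on the group alone with Benjamini-Hochberg adjustment over all tested genes, called under 0.05. Each SE was derived as the absolute log2 fold change over the root of F. Ratios of counts of 2 genes in a library were compared, with nothing added to the counts, by exact permutation over libraries. The edgeR test was checked on counts simulated as independent libraries. They held no pairing and no library apart from the rest, so the check does not cover these features of the data. Positions and union exon lengths are from GENCODE M21, promoters from RefSeq (GRCm38.p6), where all 10 symbols matched. Matches between transcripts of different genes were found over 75-base stretches of GENCODE transcripts with at most 2 mismatches.

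The groups share the numbers 1 to 6, whose meaning the labels do not give. Departures from the group mean correlated between libraries of 1 number with r of 0.213 to 0.847, all over the limit of 0.1. For 3 of the 6 numbers the libraries were each other's closest match. Without number 6 the lowest r was 0.0371, under that limit. A pairing read from the data in this way is not established. The main calls therefore rest on the group alone, with the replicate block as an alternative. Replicates differed by more than sampling noise (chi-square per degree of freedom at least 4.89). Alternatives were the replicate block, upper-quartile scaling, DESeq2 1.42.0 (size factors, test), no filter, 0.5 added to the counts of a ratio, and leaving out number 6 or each library.

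The genes and lists were chosen with earlier results of these data known. Named beyond the 10 were up to 4 called genes of each list by smallest adjusted p, and for Gzma, Gzmb, Prf1 and Serpinb9 the 4 most correlated genes. Neighbours, marker genes, untested relatives, Nkg7, Mpeg1, Cnn2, Ptbp1 and Wrnip1 were named after their values were seen.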

Additional observations from a re-analysis of the deposited data

Results flagged for a closer look

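In 8 of 20 sets of 6 libraries (10 genes in each group), 1 library lay farther from the rest than the critical gap for 6 values, where chance gives about 1 in 20, and it was the library numbered 6 in all 8. In DMSO, library 6 was lowest in Gzma, at 0.953 CPM against 4.36 to 5.56 in the other 5, lowest in Serpinb9, at 42.3 against 49.2 to 50.0, lowest in Serpinb6b, at 35.7 against 83.8 to 111, and highest in Gzmb, at 2460 against 718 to 1320. In EZH2i, library 6 was highest in Gzma, at 70.7 CPM against 24.7 to 32.3, in Gzmb, at 3130 against 1120 to 1540, and in Gzmc, at 7.03 against 2.40 to 3.80, and lowest in Serpinb6b, at 78.1 against 187 to 223. Gzmb and Serpinb6b thus departed the same way in both libraries numbered 6, and Gzma in opposite ways.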

How the results depend on the processing

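Gzma, Gzmc, Prf1, Serpinb9 and Serpinb6b were called higher under all 19 alternatives run, with log2 fold changes of 2.60 to 3.19, 1.22 to 1.80, 0.44 to 0.60, 1.20 to 1.30 and 0.91 to 1.23, and Gzmk under none (-0.07 to 0.53). All 10 genes passed the filter each time. The count of all called genes was 2266, and 5741 with the replicate block, 5270 without number 6, 5907 with both (chosen after seeing the data), and 1732 to 4079 leaving out 1 library, the highest without EZH2i replicate 6. The count called lower among the 10 was 0, and 1 with the replicate block, 2 without number 6, 2 with both, and 0 to 1 leaving out 1 library; the cause was not tested. The log2 ratio of Srgn over Gzmb was -0.55 with the pairing (exact permutation p = 0.0312), -0.50 without number 6 (exact permutation p = 0.0159) and -0.84 to -0.22 leaving out 1 library, the lowest without DMSO replicate 6 (exact permutation p = 0.013). The block changed no other call among the 10 than those of Gzmb, Srgn and Serpinb6a. Upper-quartile scaling raised the share of calls that were higher from 68.7% to 83.8%. The low counts of Gzmk limit what could be seen there.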
